A study of Mus musculus with 8 samples.

Results

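Amino acid transporters of the plasma membrane and the enzyme gene Cth were followed on 8 mouse arrays of sorted skin tumour cells. The set was chosen as a list of names: Slc38a1, Slc38a2, Slc7a1, Slc7a5, Slc7a11, Slc3a2, Slc1a4, Slc1a5 and Cth. Earlier results of these data were known when it was chosen, so its ranks and shares are descriptive. Of these 9 genes, 8 had a probe set with a single gene symbol in the platform annotation, 15 probe sets in all. Slc1a4 is not in that annotation table and was not analysed here. All 8 measured genes were among the 11874 genes tested, out of 17097 with a single-gene probe set.

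Cells had been isolated by flow cytometry for Epcam, a surface protein of epithelium, and were hybridised in 4 groups, each with 2 arrays. Control papillomas carried NR2F2 wild type, and gain-of-function (GOF) papillomas overexpressed NR2F2, a transcription factor of the nuclear receptor family. Control carcinomas were Cre-negative and labelled wild type. Loss-of-function (LOF) squamous cell carcinomas carried K5CreER with NR2F2fl/fl and are labelled knockout, so that deletion depends on a tamoxifen-inducible Cre made in keratin 5 cells. The driver of the overexpression, and whether each array had its own animal, are not given in the sources used here. The p-values therefore reflect the spread among these arrays, which may be technical.

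A tumour cell takes most of its amino acids from outside, through carriers that differ in what they move and in what drives them. Slc38a1 and Slc38a2 carry small neutral amino acids such as glutamine and alanine inward with sodium. Slc7a5 exchanges large neutral amino acids such as leucine, and Slc7a11 exchanges cystine for glutamate. Both work as light chains bound to the heavy chain Slc3a2. Slc7a1 carries arginine and lysine, and Slc1a5 exchanges glutamine and other neutral amino acids. Cth, cystathionine gamma-lyase, makes cysteine inside the cell in the last step of transsulfuration. Several of these genes are known targets of ATF4, the transcription factor of the amino acid response, and Slc7a11 is also a known target of NRF2.

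ATF4 binds with its partners to amino acid response elements, and such an element in the Slc7a11 promoter is shown here because several members are known targets of this response. RefSeq windows from 250 bases before to 50 bases after a RefSeq start of the gene (build GRCm38.p6) were at hand for 5 of the 9 genes, Slc38a2, Slc7a1, Slc7a11, Slc3a2 and Slc1a4. They were searched on both strands for TGATGNAA, the core of the element. The sequences run along the gene's own strand, with the match in capitals. Slc7a11 holds 2 matches, and Slc1a4, Asns and Chac1 hold 1 each. The Slc7a11 matches lie inside the span listed for the gene (chr3:50364936-50499087), at an inner start and not at its upstream end. Asns and Chac1 are known ATF4 targets outside the transporter family. They come from an amino acid response list in which 8 of 26 genes with windows held a match.
Slc7a11 (chr3:50443645-50443687, minus strand): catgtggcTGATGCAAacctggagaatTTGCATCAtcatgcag
Slc1a4 (chr11:20332702-20332725, minus strand): ctcctgcgTTGCATCAtctccagc
Asns (chr6:7693217-7693240, minus strand): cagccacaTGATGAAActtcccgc
Chac1 (chr2:119351041-119351064, plus strand): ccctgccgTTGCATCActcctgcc
The motif stood in 3.97% of all 32851 RefSeq windows of this length and in 2 of the 6 windows of the 5 genes. The core of the antioxidant response element bound by NRF2, TGACNNNGC, stood in 12.4% of all windows. It was found in Slc38a2 and Slc7a1, and not in the window of Slc7a11.
Slc38a2 (chr15:96699739-96699763, minus strand): ccgcccacTGACGCGGCgccccgcc
Slc7a1 (chr5:148399899-148399923, minus strand): gccgcgcgGCGCTGTCAttggtgcc
A match describes these letters and is not a measured binding site.

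The values are log2 values made by the RMA algorithm. Array medians were 3.12 to 3.16 in papilloma and 5.08 to 5.15 in carcinoma, so the tumour types were treated as normalized separately and no level was compared between them. Background is the maximum over 44 control probe sets against bacterial and other foreign transcripts on an array, 3.09 to 3.33 in papilloma and 4.95 to 5.01 in carcinoma. Nr2f2 followed its labels, with group means of 2.67 and 11.45 in control and GOF papilloma and of 8.03 and 4.89 in control and LOF carcinoma. Epcam stood at 10.37 and 8.84 in control and GOF papilloma, where it fell (limma adjusted p = 0.0343), and at 11.57 and 11.47 in control and LOF carcinoma. The limma test at an adjusted p of 0.05 called 184 of 11874 genes with GOF, 1.55%, and 2 with LOF, 0.0168%. Without either GOF array 2 genes passed with GOF, 1 higher and 1 lower.

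**Figure D1:**
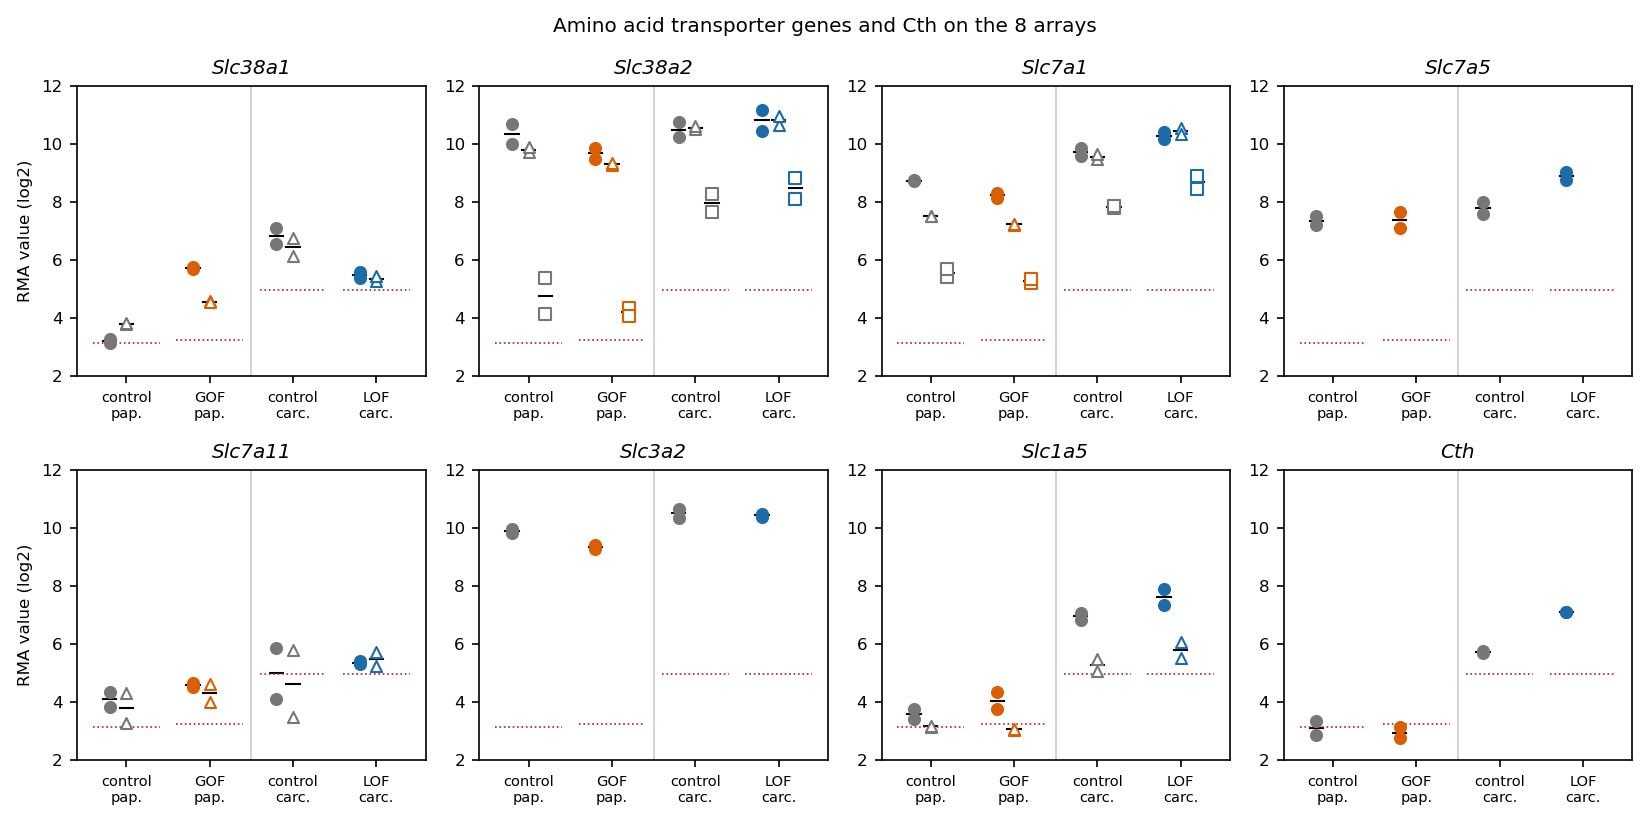
RMA values (log2) of the 8 measured genes on the 8 arrays, by group, with filled symbols for the probe set that stands for the gene, open symbols for its other probe sets, black ticks for means and a red dotted line for the mean background of the group. Slc38a1 goes from near background in control papilloma to 5.69 and 5.76 with GOF, and from 6.55 and 7.10 in control carcinoma to 5.37 and 5.60 with LOF; papilloma and carcinoma levels are not comparable.

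With NR2F2 overexpressed in papilloma, Slc38a1 was the one member that rose, and none fell. In LOF carcinoma no member passed the test, and 6 of 8 had positive log2 fold changes, led by Cth and Slc7a5. Slc38a1 ran the other way in carcinoma, with lower values in LOF. The median log2 fold change of the 8 genes was -0.07 with GOF, where that of all genes tested was 0.04, and 0.47 with LOF, where that of all genes was 0.01. The GOF median counts Cth, which lay at background in papilloma.

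Slc38a1, the sodium-coupled carrier of glutamine and other small neutral amino acids, rose with gain of NR2F2 and had a negative log2 fold change with its loss that did not pass. In papilloma it stood at 3.15 and 3.29 on the control arrays and at 5.69 and 5.76 on the GOF arrays. The GOF arrays lay close together and far above both controls, 1 of which was below its background of 3.16. It rose by 2.51 on the log2 scale (SE 0.21, limma adjusted p = 0.00992), or 5.69-fold against a control level at background. Its second probe set, with both control arrays above background, gave 1.70-fold. It ranked 9 by p among all genes, of which 0.977% rose past the threshold. The call ended without GOF replicate 1 (log2 fold change 2.54, adjusted p = 0.108) and without GOF replicate 2 (2.47, adjusted p = 0.0920).

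In carcinoma Slc38a1 stood at 6.55 and 7.10 in the controls and at 5.37 and 5.60 with LOF. Both LOF arrays lay below both controls. A log2 fold change of -1.34 (SE 0.21, 2.53-fold lower) did not pass (limma adjusted p = 0.127). It ranked 36 by p among all genes. Without control carcinoma replicate 1 it was -1.61 and passed (adjusted p = 0.0330).

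The effects with gain and loss were set against each other in the same model. The GOF effect exceeded the LOF effect of Slc38a1 by 3.84 (SE 0.30, 95% interval 3.13 to 4.55, limma adjusted p = 0.0171). With the mean of both probe sets the difference was 2.85 (limma adjusted p = 0.0338), below that interval. Of all genes 0.345% passed this test, 0.312% with the GOF effect higher and 0.0337% with it lower. This test spans scales that were normalized separately, and its GOF part rests on a control level near background. It did not pass without control papilloma replicate 2 (0.0526), GOF replicate 1 (0.110), GOF replicate 2 (0.173), LOF replicate 1 (0.0883) or LOF replicate 2 (0.0638). In these the difference ran from 3.73 to 3.96.

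The second Slc38a1 probe set had the same directions with a smaller rise. It stood at 3.79 and 3.82 in control papilloma and at 4.58 and 4.55 with GOF, a log2 fold change of 0.76 (SE 0.22). In carcinoma it stood at 6.13 and 6.76 in the controls and at 5.26 and 5.45 with LOF, a change of -1.09 (SE 0.22). Fitted per probe set it passed in neither comparison (limma adjusted p = 0.150 and 0.135). With the mean of both probe sets the rise in GOF was 1.64 and still passed.

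Macrophage and endothelial markers, and those of fibroblasts, neutrophils and mast cells given below, had the same signs as Slc38a1 in both tumour types. In papilloma the mean of 11 macrophage and monocyte genes was 3.21 to 3.30 on the control arrays and 5.44 to 6.53 on the GOF arrays. All 11 had positive log2 fold changes and 2, Lyz2 and C1qc, rose. C1qb, Cd14 and Lyz2 were not above background in the controls. The mean of 8 endothelial genes went from 3.41 to 3.58 in the controls to 5.44 to 5.55 with GOF, and 5 rose, Plvap, Emcn and Cdh5 among them. Of the endothelial markers Tek was not above background in the controls. In carcinoma all 11 macrophage genes and all 8 endothelial genes had negative log2 fold changes and none fell past the threshold. Control arrays gave macrophage means of 5.40 and 6.98, and LOF arrays 5.26 and 5.56. Control arrays gave endothelial means of 5.31 and 6.26, and LOF arrays 5.03 and 5.16, where Emcn, Kdr, Plvap and Tek were not above background. On the probe set that stands for the gene, replicate 2 had the higher Slc38a1 value in each group. Its means of both lists were also higher, except in control papilloma, where they were lower. In control carcinoma its means of the other lists were higher too, except the epithelial mean, which was lower. The part of any of these cell types in the Slc38a1 values was not tested. In such bulk samples fewer cells of a type and less RNA per cell cannot be told apart.

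All 5 dendritic and Langerhans genes tested had positive log2 fold changes with GOF, and 3 rose. With LOF 1 of the 5 was positive, and none passed. The mean of 6 dendritic and Langerhans genes was 4.74 to 5.01 in control papilloma and 6.72 to 7.34 with GOF, where H2-Aa, H2-Ab1 and H2-Eb1 rose. It was 6.18 to 7.07 in control carcinoma and 6.13 to 6.24 with LOF, and Itgax in papilloma and Cd207 in carcinoma were not above background. The mean of 8 fibroblast genes was 6.32 to 7.25 in control papilloma, 7.33 to 7.63 with GOF, 6.67 to 7.85 in control carcinoma and 6.35 to 6.82 with LOF. All 7 fibroblast genes tested had positive log2 fold changes with GOF and none with LOF, and none passed. Col1a2 was not above background in any group. The 4 neutrophil and mast cell genes tested also had positive log2 fold changes with GOF and none with LOF. Of 5 neutrophil and mast cell genes Cma1 rose with GOF, and the mean was 5.33 to 5.86 in control papilloma, 6.63 to 6.82 with GOF, 6.06 to 7.16 in control carcinoma and 6.08 to 6.33 with LOF. The mean of 5 T cell genes was 2.89 to 3.01 in control papilloma, 3.02 to 3.11 with GOF, 4.84 to 4.97 in control carcinoma and 4.68 to 4.83 with LOF, with Cd3e and Cd3g not above background in any group. None of the 7 epithelial markers was below background on both arrays of a group, and their mean was 8.73 to 8.83 in control papilloma, 9.53 to 9.55 with GOF, 10.69 to 11.32 in control carcinoma and 10.61 to 10.92 with LOF. With GOF 4 of the 7 had positive log2 fold changes, Krt8 rose (5.32, SE 0.59, limma adjusted p = 0.0164) and Epcam fell.

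Slc38a2, the stress-responsive carrier of the same system, had signs opposite to those of Slc38a1. The 2 genes are neighbours on chromosome 15, with 0 protein-coding genes between them in the RefSeq table. Slc38a2 stood at 10.01 and 10.69 in control papilloma and at 9.50 and 9.87 with GOF. Both GOF arrays lay below both controls, with -0.14 between the closest pair, and the groups were -0.66 apart (SE 0.34) at a limma adjusted p = 0.367. This became -1.0025 without control papilloma replicate 1 and -0.32 without control papilloma replicate 2. In carcinoma it stood at 10.23 and 10.76 in the controls and at 10.46 and 11.19 with LOF, and the groups overlapped (0.33, SE 0.34, limma adjusted p = 0.733). All 3 Slc38a2 probe sets were lower with GOF, from -0.66 to -0.51, and higher with LOF, from 0.25 to 0.51.

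**Figure D2:**
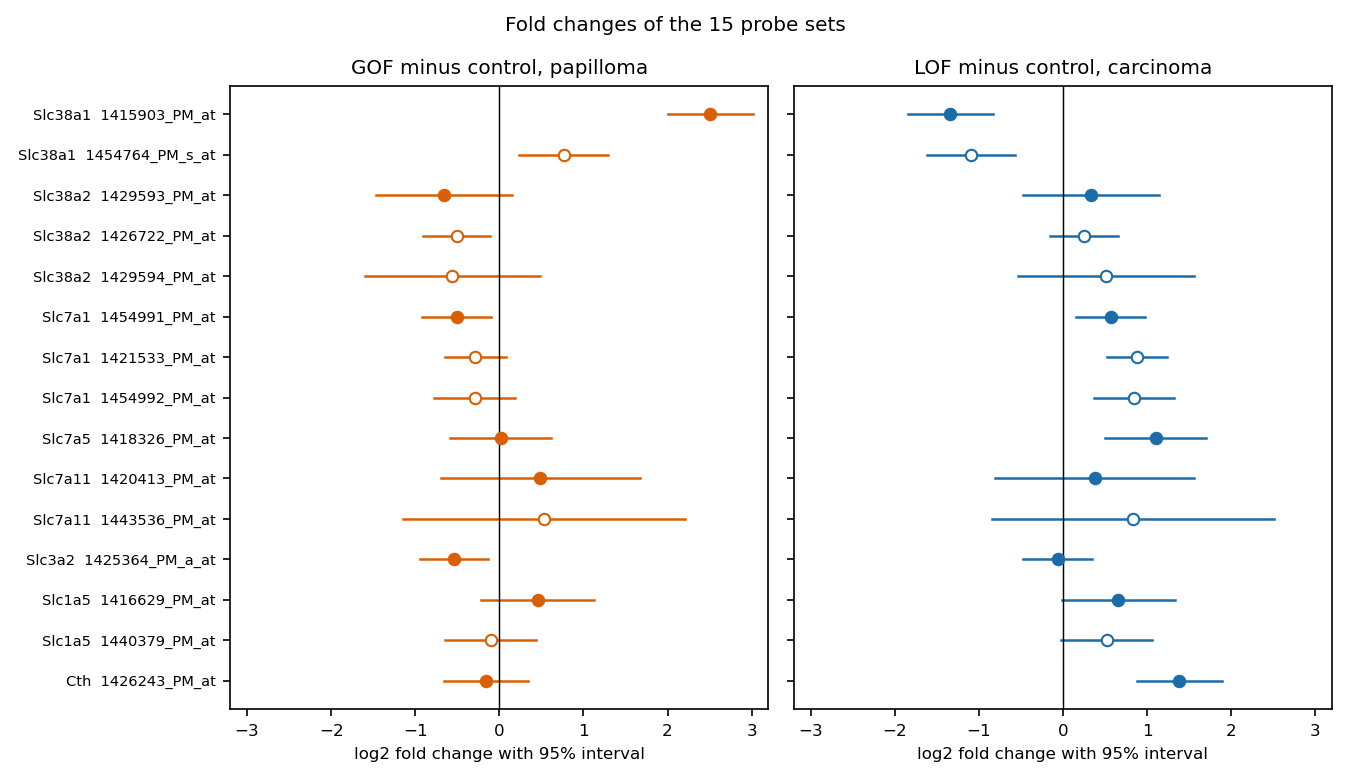
Log2 fold changes with 95% intervals of the 15 probe sets, GOF minus control in papilloma (left) and LOF minus control in carcinoma (right), with filled symbols for the probe set that stands for its gene. Both Slc38a1 probe sets lie above 0 with GOF and below 0 with LOF, while the 3 probe sets of Slc7a1 and the 3 of Slc38a2 lie on the opposite sides.

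Slc7a1, the carrier of arginine and lysine, was lower with gain and higher with loss of NR2F2 on each of its 3 probe sets. In papilloma it stood at 8.72 and 8.75 in the controls and at 8.13 and 8.32 with GOF. In carcinoma it stood at 9.59 and 9.85 in the controls and at 10.40 and 10.18 with LOF. The groups did not overlap in either comparison. The log2 fold changes were -0.51 (SE 0.17, limma adjusted p = 0.185) with GOF and 0.57 (SE 0.17, limma adjusted p = 0.224) with LOF, and neither passed. The difference between these effects was -1.08 (SE 0.24, 95% interval -1.64 to -0.51, limma adjusted p = 0.121). Its other probe sets differed by -0.28 and -0.29 with GOF and by 0.88 and 0.85 with LOF. Slc7a1 and Slc38a1 were the 2 of 8 members with no overlap in either tumour type and opposite directions, where 9.94% of all genes tested had that pattern.

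Slc7a5, the light chain that exchanges leucine and other large neutral amino acids, was higher on both LOF arrays than on both controls. It stood at 7.58 and 8.004 in control carcinoma and at 8.75 and 9.04 with LOF. The closest pair of arrays differed by 0.75. The log2 fold change was 1.10 (SE 0.25, 2.15-fold, 95% interval 1.41 to 3.26), without passing (limma adjusted p = 0.159), and it ranked 62 from the highest among all genes. In papilloma it stood at 7.21 and 7.50 in the controls and at 7.64 and 7.10 with GOF, so the GOF arrays lay on either side of the controls. The log2 fold change there was 0.01, with a 95% interval of -0.59 to 0.62, and the difference between the effects did not pass (limma adjusted p = 0.245).

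Slc3a2, the heavy chain that brings Slc7a5 and Slc7a11 to the membrane, was lower on both GOF arrays than on both controls. It stood at 9.83 and 9.96 in control papilloma and at 9.29 and 9.42 with GOF. The groups were -0.54 apart (SE 0.17), without passing (limma adjusted p = 0.165). In carcinoma it stood at 10.34 and 10.67 in the controls and at 10.49 and 10.39 with LOF. The LOF arrays lay between the controls, at -0.06 with a 95% interval of -0.46 to 0.34. The values of the heavy chain and of the Slc7a5 light chain were not tested against each other.

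Slc7a11, the cystine and glutamate exchanger, turned direction in carcinoma with 1 control array left out. It stood at 4.12 and 5.85 in control carcinoma and at 5.42 and 5.30 with LOF. The controls lay on either side of the LOF arrays, and control replicate 1 was below its background of 4.99. The second probe set repeated this, at 3.49 and 5.78 in the controls and at 5.71 and 5.23 with LOF. The difference of 0.38 (SE 0.51) at a limma adjusted p = 0.808 became -0.49 without control carcinoma replicate 1 and 1.24 without control carcinoma replicate 2, and passed in neither. In papilloma it stood at 4.36 and 3.84 in the controls and at 4.66 and 4.52 with GOF (0.49, SE 0.51, limma adjusted p = 0.687), which became 0.74 without control papilloma replicate 1 and 0.23 without control papilloma replicate 2.

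Slc1a5, the exchanger of glutamine, was low in papilloma and well above background in carcinoma, each read on its own scale. It stood at 7.08 and 6.84 in control carcinoma and at 7.91 and 7.33 with LOF. Both LOF arrays were above both controls, 0.66 apart in the means (SE 0.29) at a limma adjusted p = 0.356, and the second probe set gave 0.52. In papilloma it stood at 3.76 and 3.42 in the controls and at 4.35 and 3.74 with GOF, and the groups overlapped (0.46, SE 0.29, limma adjusted p = 0.456). The GOF value was 0.15 without GOF replicate 1, 0.76 without GOF replicate 2 and 0.28 without control papilloma replicate 2, and the LOF value was 0.37 without LOF replicate 1. The second probe set was not above background on either GOF array.

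Cth, the cysteine-making enzyme of transsulfuration, had the highest log2 fold change of the members with LOF. It stood at 5.70 and 5.76 in control carcinoma and at 7.11 and 7.12 with LOF. The arrays of each group lay close together, and the pairs across groups differed by 1.35 to 1.42. The log2 fold change was 1.39 (SE 0.21, 2.61-fold, 95% interval 1.85 to 3.70), without passing (limma adjusted p = 0.118). It ranked 22 from the highest and 33 by p among all genes, of which none rose past the threshold by limma with LOF and 1713, 14.4%, had an unadjusted p under 0.05. In papilloma Cth stood at 2.86 and 3.33 in the controls and at 3.13 and 2.74 with GOF. No GOF array and 1 of 2 control arrays were above background there, so no fold is given.

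Counted over the set, 3 of 8 members had an unadjusted p under 0.05 with GOF, where 18.1% of all genes did, and 4 of 8 with LOF, where 14.4% did. The groups did not overlap for 5 of 8 members with GOF (2 higher, 3 lower), where 51.4% of all genes did not, and for 5 of 8 with LOF (4 higher, 1 lower), where 44.5% did not. The members' share without overlap was near that background in both comparisons.

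**Figure D3:**
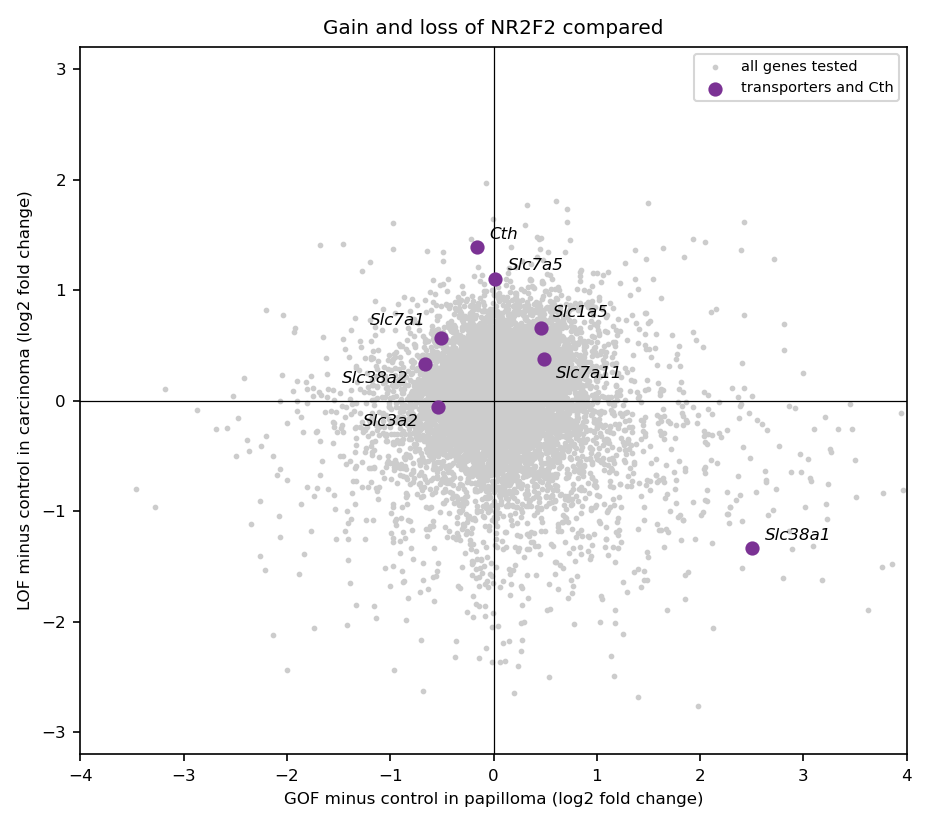
Log2 fold change of GOF minus control in papilloma (horizontal) against LOF minus control in carcinoma (vertical) for all 11874 genes tested (grey; 10 lie outside the axes) and the 8 members (purple). Slc38a1 is at 2.51 and -1.34, apart from the other members, and Cth and Slc7a5 are at 1.39 and 1.10 on the vertical axis. Slc7a5 is near 0 on the horizontal axis, while Cth lay at background in papilloma, so its horizontal value carries no direction.

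The other amino acid transporters had medians below 0 in both comparisons. Of 21 tested, including the glycine carrier Slc6a9 and the lysosomal carrier Slc66a1, none passed in either comparison. The median was -0.18 with GOF and -0.07 with LOF, and 9 had positive log2 fold changes in each. With GOF Slc66a1 stood at 1.08 (SE 0.24, limma adjusted p = 0.0781) and Slc6a9 at 0.87 (SE 0.25, limma adjusted p = 0.135). With LOF the broad-range importer Slc6a14 stood at -1.46 (SE 0.58) and Slc43a2, which moves large neutral amino acids, at -1.34 (SE 0.45), without passing (limma adjusted p = 0.324 and 0.264).

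Genes of the amino acid response were mixed with GOF and mostly higher with LOF. None of 26 passed in either comparison. With LOF 16 had positive log2 fold changes and the median was 0.28, and 13 were higher without overlap, where 25.5% of all genes were. The serine synthesis enzyme Psat1 stood at 9.58 ± 0.30 (SD, n = 2) in control carcinoma and at 10.56 ± 0.28 with LOF, 0.98 apart (SE 0.21) at a limma adjusted p = 0.141. The stress gene Nupr1 stood at -1.04 (SE 0.21, limma adjusted p = 0.134). With GOF the median was -0.07, and 11 of 26 were lower without overlap, where 21.9% of all genes were. Ddit4, an inhibitor of mTORC1 signalling, stood at -0.75 (SE 0.20), and Eif2ak4, the kinase that senses uncharged tRNA, was not above background with GOF and at least 1.24-fold lower (limma adjusted p = 0.112 and 0.110).

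The cytosolic aminoacyl-tRNA synthetases, which load amino acids onto their tRNAs, were higher by small steps in both comparisons. None of 17 passed. With LOF 16 had positive log2 fold changes, with a median of 0.46, and 15 were higher without overlap, where 25.5% of all genes were. Iars stood at 0.80 (SE 0.24) and Yars at 0.62 (SE 0.16), with limma adjusted p = 0.222 and 0.191. With GOF all 17 were positive, with a median of 0.34, and 11 were higher without overlap, where 29.5% of all genes were. Lars stood at 0.68 (SE 0.18) and Hars at 0.51 (SE 0.15), with limma adjusted p = 0.110 and 0.137.

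Among genes around cysteine and glutathione, 1 rose with GOF and none passed with LOF. Of 13 genes of transsulfuration, the methionine cycle and glutathione, the glutathione synthetase gene Gss rose with GOF, from 4.33 ± 0.10 (SD, n = 2) to 6.72 ± 0.46, or by 2.39 (SE 0.36) at a limma adjusted p = 0.0353. The glutathione reductase gene Gsr stood at 1.16 (limma adjusted p = 0.103), and the list median was 0.11. With LOF none passed, the median was -0.05, and the lowest p belonged to Ahcy (0.54, limma adjusted p = 0.315) and Gnmt (0.28, limma adjusted p = 0.560). Of 14 NRF2 targets none passed, with medians of 0.14 with GOF and -0.01 with LOF. Osgin1 stood at -1.21 with GOF (SE 0.22, limma adjusted p = 0.0531), and with LOF Hmox1 stood at -0.57 and Tkt at 0.34 (limma adjusted p = 0.397 and 0.387).

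Of 10 glutamine metabolism genes, Gfpt2, which uses glutamine for hexosamines, rose with GOF (4.86, SE 0.35, limma adjusted p = 0.00992), and Got2 stood at 0.73 (limma adjusted p = 0.0908). With LOF none passed, 8 were higher and 2 lower without overlap, where 25.5% and 19% of all genes were, and the median was 0.46. The pyrimidine synthesis gene Cad stood at 0.84 (SE 0.16) and the alanine transaminase gene Gpt at 0.83 (SE 0.16), each with limma adjusted p = 0.133. Of 18 genes of amino acid sensing by mTORC1 none passed, with medians of 0.14 and -0.05. The mTOR partner Mlst8 stood at -0.64 with GOF and 0.54 with LOF (limma adjusted p = 0.0718 and 0.184), Lamtor5 at 0.65 with GOF and Depdc5 at 0.38 with LOF (limma adjusted p = 0.0867 and 0.449).

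Proliferation genes had positive values in both tumour types. None of 19 passed. All 19 had positive log2 fold changes with LOF (median 0.80) and 17 with GOF (median 0.62). Birc5 stood at 0.92 with GOF and 1.00 with LOF, Ccne1 at 0.85 with GOF and Pole at 1.12 with LOF (limma adjusted p = 0.0660, 0.132, 0.0847 and 0.132). The part of cell division in the values of Cth, Slc7a5 and the synthetases was not tested.

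**Figure D4:**
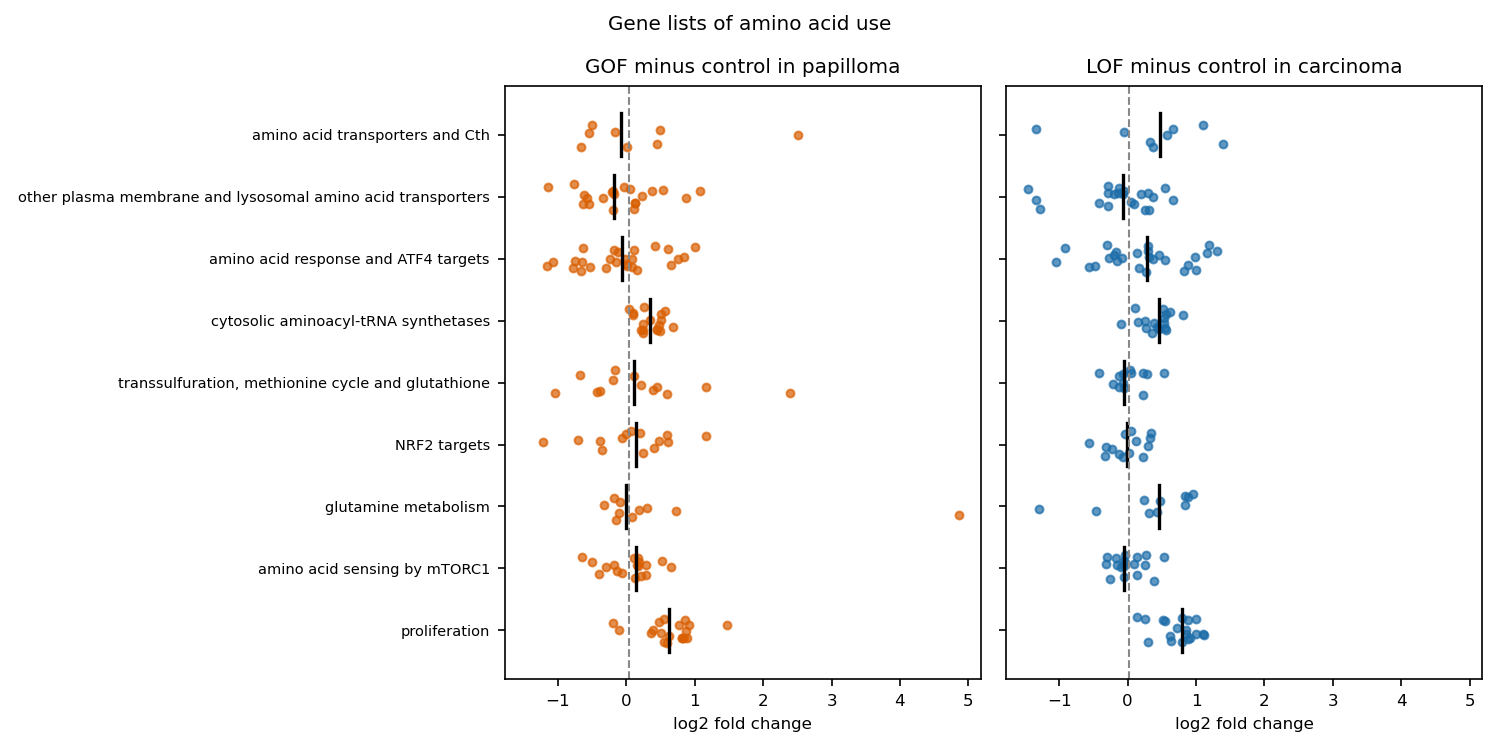
Log2 fold changes of the genes tested in each list (points), with the list median (black tick) and the median of all genes (grey dashed line), for GOF minus control in papilloma (left) and LOF minus control in carcinoma (right). The medians of the members, the synthetases, the glutamine list and the proliferation list lie at 0.46 or above with LOF, and Slc38a1, Gss and Gfpt2 stand apart to the right with GOF.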

How the data were processed

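RNA of Epcam-sorted tumour cells was hybridised to 8 Affymetrix mouse strip arrays of perfect-match probes. The authors deposited log2 values. Per the labels these come from RMA, and the submitters' processing notes also name affy. Versions are not given in the sources used here. RMA normalizes and fits probe effects over the arrays run together. Papilloma and carcinoma columns differed in median and in decimals (5 and 4), so they were read as separate normalizations.

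Of 45141 probe sets, 104 were Affymetrix controls, 28898 had 1 gene symbol, 551 several and 15588 none; Entrez numbers led from 28689 of the single-symbol ones to RefSeq (GRCm38.p6). The filter asked that 2 or more of the 4 arrays of either tumour type exceed that type's median (18916 probe sets kept), and a gene was represented by its probe set with the highest mean. Groups came from the sample source names. A limma 3.58.1 model (R 4.3.3) held all 8 arrays with 1 mean per group (4 residual and 2.93 prior degrees of freedom), and Benjamini-Hochberg adjustment ran over every gene tested. The script was tested on simulated data. An exact permutation of 2 arrays against 2 gives no p under 0.333. Replicates correlated at 0.980 to 0.991, and the number of arrays limits the precision. Where a group was at background on both arrays, a fold is a lower bound: the brighter mean against, per array of the dimmer group, the higher of background and value.

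Members and lists were chosen with earlier results of these data known. Named were all members, in each list the genes past the threshold (at most 4) or otherwise the lowest p, up to 2 a comparison, and at most 3 called markers a list. Alternatives covered the filter, normalization, probe sets, variance prior, arrays fitted, a replicate block and each array left out.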

Additional observations from a re-analysis of the deposited data

Results flagged for a closer look

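The effects of gain and loss of NR2F2 on Slc38a1 differed by 3.84 (limma adjusted p = 0.0171), or by 2.85 with the mean of both probe sets. The Slc38a1 log2 fold change was 2.51 with GOF in papilloma, against a control level near background, and passed. With LOF in carcinoma it was -1.34, which did not pass (limma adjusted p = 0.127). Slc38a1 was higher in 4 of 4 array pairs with GOF and in 0 of 4 with LOF. These pairs come from 2 arrays against 2. Of all genes tested, 9.94% had no overlap in either comparison and opposite directions, whichever way round. The difference did not pass under the replicate block (0.0591) or in 5 of the 8 fits with 1 array left out (0.0526 to 0.173). Macrophage and endothelial markers had the same signs in both tumour types (medians 2.40 and 2.05 with GOF, -0.84 and -0.67 with LOF). So had fibroblast markers (medians 0.59 with GOF and -0.67 with LOF) and neutrophil and mast cell markers (1.31 and -0.38). Dendritic and Langerhans markers had medians of 3.06 with GOF and -0.47 with LOF, where 1 of 5 was positive. The part of these cells in the result was not tested.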

How the results depend on the processing

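With 2 arrays a group, counts over all genes moved with the processing, and the cause was not tested. With no filter 115 genes passed with GOF, and 11 for the difference between effects. A filter over all 8 arrays gave 11 for that difference and quantile normalization of all 8 arrays gave 13. A trended and robust prior gave 23 with LOF and 68 for the difference. With only the 4 carcinoma arrays 0 passed in limma with LOF, and 1401 had an unadjusted p under 0.05. Leaving out each array gave 2 (either GOF array) to 308 (either control carcinoma array) genes with GOF, 0 to 107 (control carcinoma replicate 1) with LOF and 1 (either GOF array) to 286 (control carcinoma replicate 1) for the difference, and 0 to 1 members in each tumour type.

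The labels do not state that replicate numbers pair the arrays. Deviations of same-numbered arrays correlated at -0.0036 in papilloma and 0.12 in carcinoma. With so few arrays these values cannot show whether the arrays were paired. With a replicate block, 37 genes passed with GOF, 0 with LOF (1782 at an unadjusted p under 0.05) and 3 for the difference. Slc38a1 passed with GOF under the block (limma adjusted p = 0.0478), and its difference did not (0.0591).

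Slc38a1 kept its direction in all 19 alternatives within each tumour type, but most of these could not turn it. Settings such as the filters, the variance prior and the block left its log2 fold changes at 2.51 and -1.34. As its groups did not overlap, leaving out an array could not turn the sign either. Slc7a5 with GOF turned to -0.0381 and -0.0323 under quantile normalization within tumour type and over all 8 arrays. Leaving out each array gave -0.26 to 0.29 for it, and, with LOF, -0.0331 to 0.692 for Slc38a2, -0.49 to 1.24 for Slc7a11 and -0.23 to 0.10 for Slc3a2. Single values that turned included -0.13 for Slc7a5 without control papilloma replicate 1. For Cth in papilloma, which lay at background, the fitted differences of -0.392 to 0.0768 (0.04 without GOF replicate 2) carry no direction.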

Other observations

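Within the amino acid response list, genes chosen here after their values were seen had both signs with LOF in carcinoma. The serine and one-carbon enzymes Phgdh (1.30, SE 0.42), Shmt2 (1.18, SE 0.31), Aldh1l2 (1.16, SE 0.37) and Psph (1.00, SE 0.24) and the asparagine synthetase gene Asns (0.88, SE 0.26) were higher on both LOF arrays than on both controls. So were 25.5% of all genes tested. The stress genes Ppp1r15a (-0.91, SE 0.29) and Cebpg (-0.57, SE 0.33) were lower on both LOF arrays, as were 19% of all genes. Other stress genes of the list were not: Trib3 stood at 0.83 (SE 0.57) and was higher on both LOF arrays, and Chac1 stood at 0.14 (SE 0.77) with overlapping groups. Atf4 itself stood at 0.37 (SE 0.20). None passed, with limma adjusted p from 0.165 to 0.962. With GOF in papilloma Atf4 stood at -0.66 (SE 0.20), Chac1 at -1.16 (SE 0.77) and Trib3 at -1.07 (SE 0.57), while Aldh1l2 and Shmt2 were at 1.00 and 0.85, with limma adjusted p from 0.154 to 0.479.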
